A study of Mus musculus with 8 samples.

Results

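Chemokines are small secreted proteins that guide the movement of cells, and the chemokine transcripts other than Cxcl12 were measured here in sorted skeletal cells of the mouse spine and long bones. Members were the rows of a protein-coding gene table whose symbol was Ccl, Cxcl or Cx3cl1 with its number, leaving out Cxcl12. This gave 42 of 22053 rows and 36 symbols, with 35 rows on assembled chromosomes and 7 rows of the Ccl19, Ccl21 and Ccl27 genes on unplaced scaffolds. All 8 RNA-seq libraries came from wild-type (WT) mice at postnatal day 10. The 4 vSSC libraries held primary vertebral cells from the spine, called candidate vertebral skeletal stem cells by the submitters, and the 4 lbSSC libraries held primary cells from femur and tibia, called long bone skeletal stem cells. Each group had 2 male libraries (replicates 1 and 2) and 2 female libraries (replicates 3 and 4). Both groups were sorted for cells that carried CD200 and lacked CD105, 6C3, Thy, CD45, TER119 and CD31, and neither carried a transgene or treatment in the labels. How many animals a library stands for is not in the labels, so the p-values speak of the spread between libraries, which may in part be technical.

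Chemokines are named after the spacing of their first cysteines, as CC (Ccl), CXC (Cxcl) or CX3C (Cx3cl1) ligands, and act through receptors of the Ccr, Cxcr and Cx3cr families on the cells they attract. Inflammatory members such as Ccl2, Cxcl1 and Cxcl10 are induced by NF-kB or interferon signalling, while others, such as Cxcl14, Ccl25 and Ccl27, are made constitutively in tissues. In bone marrow, chemokines from stromal cells hold and mobilise blood cells, and tumour cells that carry a matching receptor can respond to the same ligands.

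The sequences that stand out among the members are those upstream of Cxcl14, the most abundant member, and of Cxcl1, Cxcl2 and Cxcl3, neighbours on chromosome 5 of which Cxcl1 alone was expressed here. Each run holds the 250 bases before the RefSeq start on the gene's strand (GRCm38.p6). Capitals mark matches to the NF-kB motif or to an interferon response element. Cxcl14 is shown from chr13:56296552-56296801 (minus strand), Cxcl1 from chr5:90890995-90891244, Cxcl2 from chr5:90903649-90903898 and Cxcl3 from chr5:90785851-90786100 (plus strand).
Cxcl14: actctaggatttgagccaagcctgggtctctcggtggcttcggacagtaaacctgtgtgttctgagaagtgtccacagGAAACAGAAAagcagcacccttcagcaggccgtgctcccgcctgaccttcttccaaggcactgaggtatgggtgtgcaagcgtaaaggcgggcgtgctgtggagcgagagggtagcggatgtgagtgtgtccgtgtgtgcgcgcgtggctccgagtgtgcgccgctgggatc
Cxcl1: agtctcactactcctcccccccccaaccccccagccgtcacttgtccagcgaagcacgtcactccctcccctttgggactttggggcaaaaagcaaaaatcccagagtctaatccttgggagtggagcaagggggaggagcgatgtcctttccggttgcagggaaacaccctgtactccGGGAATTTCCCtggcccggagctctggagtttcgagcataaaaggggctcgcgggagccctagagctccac
Cxcl2: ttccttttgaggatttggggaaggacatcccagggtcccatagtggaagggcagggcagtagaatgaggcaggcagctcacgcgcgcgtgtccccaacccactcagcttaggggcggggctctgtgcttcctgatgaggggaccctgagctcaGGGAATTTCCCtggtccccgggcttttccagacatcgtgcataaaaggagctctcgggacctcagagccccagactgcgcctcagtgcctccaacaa
Cxcl3: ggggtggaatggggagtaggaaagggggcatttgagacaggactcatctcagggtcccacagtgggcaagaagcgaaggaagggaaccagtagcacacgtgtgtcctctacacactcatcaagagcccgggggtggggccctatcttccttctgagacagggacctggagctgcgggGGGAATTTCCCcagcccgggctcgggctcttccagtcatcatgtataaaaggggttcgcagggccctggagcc

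The 3 neighbours each held the same run, GGGAATTTCCC, in which 2 overlapping matches to the NF-kB motif lie, and it began 71 bases before the start in Cxcl1, 97 in Cxcl2 and 73 in Cxcl3. The motif, searched on both strands, lay in 7.25% of the 32851 RefSeq promoter windows of this length. Of the 36 member symbols 25 had an entry, and 7 of these held it: Cxcl1, Cxcl2, Cxcl3, Cxcl10, Ccl1, Ccl9 and Ccl20. Of these 7 genes, Cxcl1 was the one that was expressed here, by the threshold given with the expression values. Among all 25 symbols with an entry 5 were expressed, and the expressed Cxcl16 had no entry. The 7.25% counts windows, and some symbols have several, so it is not a like measure for the 7 symbols. The window of Cxcl14 held no NF-kB match and 1 match to the interferon response element (10 letters, both strands), which lay in 2.98% of all windows. This element lay in entries of 3 member symbols, Cxcl14, Cxcl10 and Ccl19. These matches describe letters and do not show that a factor binds there.

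Expression was read in FPKM, which is per length and per library size, so levels of different genes can be compared. A member was called expressed when 4 or more of the 8 libraries reached an FPKM of 1. By this rule 6 of 42 members were expressed, while 48.7% of all rows of the table were. They were Cxcl14, Cxcl1, Ccl27a, Cx3cl1, Ccl25 and Cxcl16, in order of their mean FPKM over all libraries. Of the remaining 36 rows, 16 were listed at 0 in every library, among them all 7 scaffold rows, 18 were above 0 in some library but never reached 1, and 2 (Cxcl13 and Ccl24) reached 1 in a single library.

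**Figure D1:**
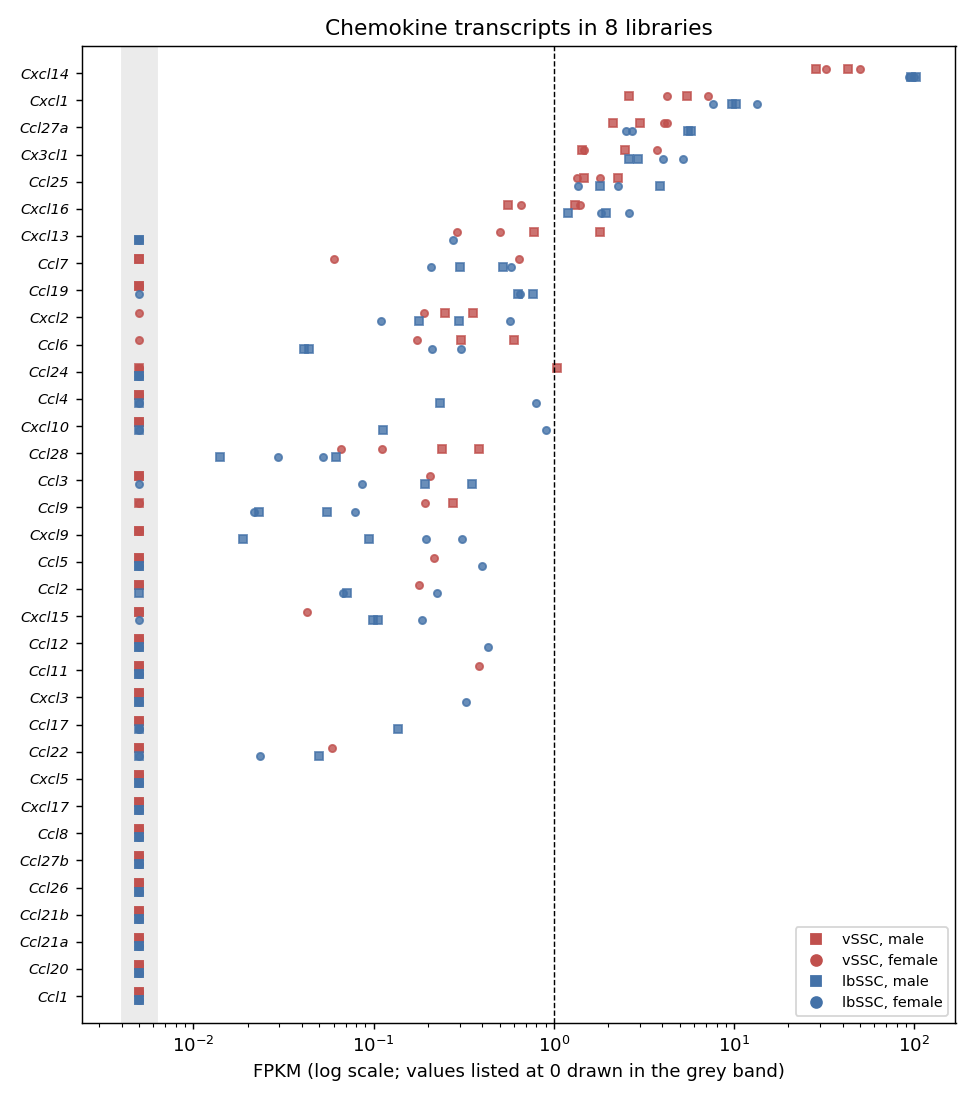
FPKM of the 35 chemokine rows on assembled chromosomes in each library, on a log axis, with values listed at 0 drawn in the grey band, where points overlie each other. The dashed line marks an FPKM of 1, and Cxcl14 lies far to the right of all other members in all 8 libraries.

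Cxcl14, a CXC chemokine made constitutively in skin and other epithelia, carried most of the chemokine signal at both sites. Its level was 28.5, 42.6, 32.5 and 49.6 FPKM in vSSC replicates 1 to 4 and 101.8, 95.3, 99.8 and 93.1 FPKM in lbSSC replicates 1 to 4. Every lbSSC library lay above every vSSC library, and the lbSSC values spread little (97.5 ± 3.98 FPKM, SD, n = 4) compared with those of vSSC (38.3 ± 9.61 FPKM, SD, n = 4). Mean FPKM was 2.55 times as high in lbSSC, and the difference, taken as vSSC minus lbSSC of log2(FPKM + 1), was -1.36 ± 0.16 (SE; limma adjusted p = 0.000128). Its mean level over all libraries lay above that of 95.1% of the rows in the table. Of the summed FPKM of all members, Cxcl14 made up 66.7% to 74.3% in vSSC libraries and 77.9% to 80.9% in lbSSC libraries. The gene (ENSMUSG00000021508) lies on chromosome 13 at 56288647 to 56296551 on GRCm38.

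Cxcl12, the chemokine of marrow stroma that retains blood stem cells and that is no member here, was below Cxcl14 in each of the 8 libraries. Cxcl12 ranged over 8.29 to 17.7 FPKM in vSSC against 24.2 to 45.5 FPKM in lbSSC. The ratio of Cxcl14 to Cxcl12 was 1.61 to 5.99 in vSSC and 2.24 to 3.84 in lbSSC. The 2 ranges overlapped, and both chemokines were lower in vSSC.

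Cxcl1, which draws neutrophils through the receptor Cxcr2, was the second most abundant member and was also lower in vSSC. Its level was 2.60, 5.50, 4.22 and 7.17 FPKM in vSSC replicates 1 to 4 and 9.68, 10.3, 13.4 and 7.67 FPKM in lbSSC replicates 1 to 4. The groups did not overlap, although vSSC replicate 4 and lbSSC replicate 4 lay close together. Means were 4.87 ± 1.94 and 10.3 ± 2.39 FPKM (SD, n = 4), a ratio of 2.11, and the difference was -0.98 ± 0.24 (SE; limma adjusted p = 0.0136). This call was lost without both vSSC replicates 1 and 3 (-0.61, limma adjusted p = 0.0947) and when ribosomal protein content, as a percent of a library's FPKM, entered the model (-0.48, limma adjusted p = 0.562). That percent was 18.3% to 21.4% in vSSC and 15.7% to 18.4% in lbSSC, so it was mostly higher in vSSC. Cxcl14 kept its call in both settings (-1.07, limma adjusted p = 0.000632, and -1.01, limma adjusted p = 0.0157). Cxcl1 (ENSMUSG00000029380) lies on chromosome 5 at 90891241 to 90893115.

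Markers of other cell types differed between the sites in both directions. Summed over 12 neutrophil markers, FPKM was 299.6 to 462.5 in vSSC and 30.3 to 135.5 in lbSSC, and 6 of 8 tested markers were higher in vSSC and none lower, beside 14.3% and 9.17% of all genes tested. S100a8, a calcium-binding protein of neutrophils, had 155.2 ± 37.7 FPKM in vSSC against 30.9 ± 19.7 FPKM in lbSSC (SD, n = 4). Together with S100a9 (115.9 ± 24.1 against 27.2 ± 14.8 FPKM, SD, n = 4) it carried most of the neutrophil sum. Mpo and Retnlg were not called (limma adjusted p = 0.991 and 0.793). Elane, Csf3r, Mmp8 and Ly6g did not pass the filter, and Csf3r had the lower mean in vSSC (0.0156 against 0.129 FPKM). Sums over 12 macrophage and monocyte markers were 17.7 to 36.4 in vSSC and 9.61 to 14.3 in lbSSC, with 8 of the 12 under 1 FPKM in every library. Most of these sums was Lyz2, Cd14 and Tyrobp, the 3 tested ones, all higher in vSSC. Of the untested ones, Csf1r (0.0688 against 0.114 FPKM), C1qc and Fcgr1 had the lower mean in vSSC and the others the higher. Over 10 lymphocyte markers the sums were 9.17 to 15.2 and 1.15 to 5.82, with the T cell genes Cd3e and Cd3g listed at 0 throughout. Cd79a and Cd79b, the 2 tested ones, were higher in vSSC and made up most of the sums there. The leukocyte marker Ptprc, which encodes CD45, ranged over 0.331 to 0.949 FPKM in vSSC against 0.0250 to 0.0688 FPKM in lbSSC. All 7 endothelial markers were under 1 FPKM in every library. Osteoclast markers summed to 55.1 to 77.5 in vSSC and 106.7 to 126.9 in lbSSC. Both tested ones, Acp5 and Ctsk, were lower in vSSC, while Ocstamp, Dcstamp, Calcr and Oscar stayed under 1 FPKM everywhere. Ctsk made up most of these sums, at 50.7 to 72.8 FPKM in vSSC and 98.2 to 119.7 FPKM in lbSSC. Over 7 erythroid markers the sums were 3799 to 5352 in vSSC and 4246 to 8752 in lbSSC, with 2 of 7 lower in vSSC. Megakaryocyte and platelet markers summed to 15.3 to 19.4 and 10.4 to 22.6. Most of this was Gp1bb, the 1 tested gene of 7, at 14.9 to 16.1 FPKM in vSSC and 7.28 to 20.8 FPKM in lbSSC. The part of these cells in the chemokine levels was not tested. In bulk samples, fewer cells of a type and less RNA per cell cannot be told apart.

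The membrane-bound chemokines Cxcl16 and Cx3cl1 were expressed at low levels. Cxcl16, a scavenger receptor and a ligand of Cxcr6 on T cells, was at 0.554, 1.31, 0.657 and 1.40 FPKM in vSSC replicates 1 to 4 and 1.94, 1.20, 1.83 and 2.63 FPKM in lbSSC replicates 1 to 4. It reached 1 FPKM in all 4 lbSSC libraries but in 2 of 4 vSSC libraries, so the lbSSC libraries alone were enough to carry it into the test. The ranges overlapped through lbSSC replicate 2, and the difference was -0.55 ± 0.21 (limma adjusted p = 0.0740, 95% interval -1.01 to -0.10). It passed the threshold without vSSC replicate 4 (-0.66, limma adjusted p = 0.0467) or without lbSSC replicate 2 (-0.68, limma adjusted p = 0.0465). It fell to -0.28 without both vSSC replicates 1 and 3 (limma adjusted p = 0.453) and to -0.036 in the model with ribosomal protein content (limma adjusted p = 0.969).

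Cx3cl1, or fractalkine, which acts on Cx3cr1 of monocytes and microglia, was at 2.49, 1.44, 3.72 and 1.47 FPKM in vSSC replicates 1 to 4 and 2.94, 2.61, 4.04 and 5.22 FPKM in lbSSC replicates 1 to 4. The groups overlapped, with vSSC replicate 3 above lbSSC replicates 1 and 2. The difference of -0.54 ± 0.24 did not pass (limma adjusted p = 0.122, 95% interval -1.07 to -0.01). It passed without vSSC replicate 3 (-0.74, limma adjusted p = 0.0476) and without both vSSC replicates 1 and 3 (-0.90, limma adjusted p = 0.0299). Both proteins are shed from the membrane by the proteases Adam10 and Adam17, which were expressed at both sites, Adam10 at 5.41 ± 0.714 FPKM in vSSC and 8.40 ± 1.54 in lbSSC and Adam17 at 8.23 ± 0.947 and 7.83 ± 1.15 (SD, n = 4). Cxcl16 (ENSMUSG00000018920) lies on chromosome 11 at 70453983 to 70459984 and overlaps Zmynd15, which was below 0.2 FPKM in every library. Cx3cl1 (ENSMUSG00000031778) lies on chromosome 8 at 94772009 to 94782427.

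The CC ligands Ccl25 and Ccl27a, known from gut and thymus and from skin, were expressed with no difference between the sites beyond the spread of the libraries. Ccl25 was at 1.47, 2.26, 1.80 and 1.34 FPKM in vSSC replicates 1 to 4 and 1.80, 3.90, 2.26 and 1.35 FPKM in lbSSC replicates 1 to 4, a difference of -0.25 ± 0.22 (limma adjusted p = 0.433, 95% interval -0.74 to 0.23). Its values overlapped almost entirely apart from the high lbSSC replicate 2. Ccl27a was at 3.02, 2.12, 4.26 and 4.08 FPKM in vSSC replicates 1 to 4 and 5.57, 5.77, 2.51 and 2.71 FPKM in lbSSC replicates 1 to 4, a difference of -0.20 ± 0.25 (limma adjusted p = 0.598, 95% interval -0.75 to 0.36). Single libraries moved these differences. That of Ccl25 was -0.046 without lbSSC replicate 2. That of Ccl27a was -0.042 when lbSSC replicate 2 was left out, -0.057 when lbSSC replicate 1 was, and -0.046 when vSSC replicate 2 was. Leaving out lbSSC replicate 3 gave -0.36, leaving out lbSSC replicate 4 gave -0.33, and leaving out vSSC replicate 3 gave -0.30. Both intervals leave room for a lower level in vSSC of the size estimated for Cxcl16.

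Reads of these CC genes may be shared with others. Ccl25 (ENSMUSG00000023235, chromosome 8 at 4325210 to 4360020) overlaps Elavl1 by 204 bases, and Ccl27a (ENSMUSG00000073888, chromosome 4 at 41769467 to 41774247) overlaps the end of Il11ra1 by 8 bases, in each case on the other strand. Elavl1 was at 26.7 to 33.3 FPKM in vSSC and 25.3 to 30.8 FPKM in lbSSC, above Ccl25 in every library. The library kit does not mark the strand. Ccl27a also has related rows that could share its reads, Ccl27b and 2 scaffold rows named Ccl27a, all listed at 0, and the sources used here do not say how reads of such copies were counted. The levels of both Ccl25 and Ccl27a are therefore uncertain.

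**Figure D2:**
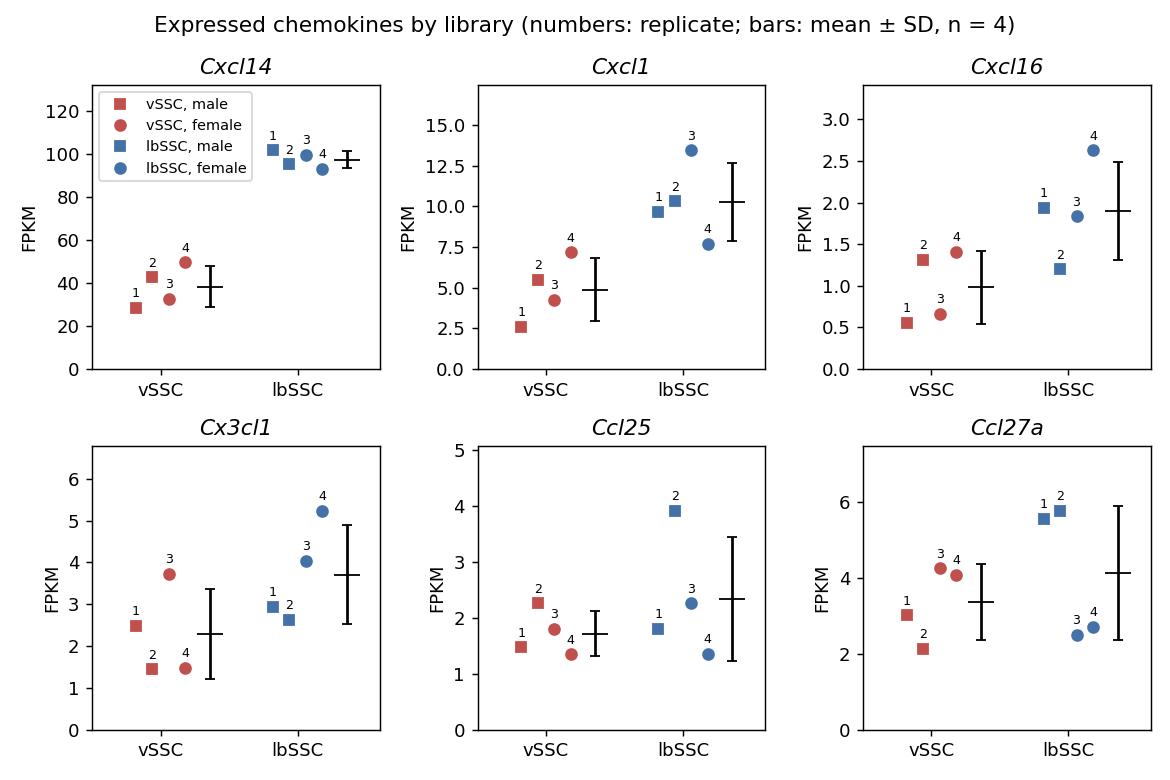
FPKM of the 6 expressed chemokines in each library, with squares for males, circles for females, replicate numbers above the points, and bars for mean ± SD (n = 4). The groups do not overlap in Cxcl14 and Cxcl1, and they overlap in the other 4 genes.

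Read together, 2 of the 6 expressed members, or 33.3%, were called at an adjusted p under 0.05, both lower in vSSC, beside 23.5% of the 10729 genes tested (9.17% lower and 14.3% higher). Groups did not overlap in the same 2 members, beside 25.8% of all genes tested (9.99% with vSSC lower). With 6 members, these shares do not set the chemokines apart. All 6 differences lay below 0, with a median of -0.55, beside 41.4% of all tested genes below 0 and a median of 0.08. No alternative turned any of the 6 above 0, but the differences nearest 0 were -0.036 for Cxcl16, -0.042 for Ccl27a and -0.046 for Ccl25. The 3 other scalings moved the median of all genes to between -0.04 and 0.03.

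**Figure D3:**
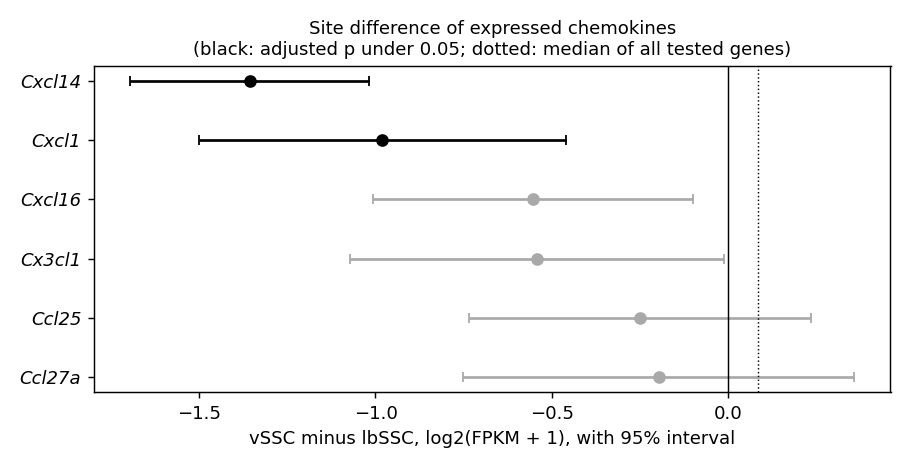
Difference of the 6 expressed chemokines between the sites, taken as vSSC minus lbSSC of log2(FPKM + 1), with 95% intervals, black where the adjusted p was under 0.05. All 6 points lie below 0, and the intervals of Cxcl14 and Cxcl1 lie farthest from it.

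Within vSSC the members split by library in opposite ways. Replicates 1 and 3 had the lower levels of Cxcl14, Cxcl1 and Cxcl16, and replicates 2 and 4 the higher ones. Cx3cl1 went the other way, with 2.49 and 3.72 FPKM in replicates 1 and 3 and 1.44 and 1.47 in replicates 2 and 4. These 2 pairs mix the sexes. They also differed in Col2a1, the cartilage collagen, which was at 7443 and 7528 FPKM in replicates 1 and 3 and 13426 and 15067 FPKM in replicates 2 and 4. Col2a1 carried most of the summed FPKM of 10 skeletal identity genes, which was 10230 and 10647 in replicates 1 and 3 and 16753 and 18389 in replicates 2 and 4. Sox9, Acan, Runx2, Sp7 and Pdgfrb of that list were also lower in replicates 1 and 3 than in 2 and 4. Sox9 was at 72.1, 129.4, 64.7 and 190.7 FPKM in replicates 1 to 4, and Acan at 290.6, 543.5, 261.6 and 672.9. Col1a1 had the same order with values closer together, at 622.8, 787.6, 726.6 and 756.7 FPKM. Col1a2, Prrx1 and Pdgfra did not split this way and were highest in replicate 3 and lowest in replicate 4. In the long bone libraries the sum was 21221 to 29273. Its relation to the chemokines was not tested.

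None of the 6 expressed members passed the test between the sexes in limma, beside 0.0466% of all genes tested (5 of 10729; 892 at an unadjusted p under 0.05). Limma adjusted p-values of the members ran from 0.642 to 0.882, and the smallest belonged to Cx3cl1, at a mean of 2.37 FPKM in males and 3.61 in females (male minus female -0.40 ± 0.22). No gene, 0% of those tested, passed the test for an interaction of site and sex in limma. An unadjusted p under 0.05 was found in 405 of 10729 genes, fewer than such a cutoff gives by chance. Ccl27a had the smallest p of the members (-1.43 ± 0.29, unadjusted p = 0.000637, limma adjusted p = 0.981, with site and sex each split 4 and 4), and so failed the correction. Its female values lay above the male ones in vSSC and below them in lbSSC, without overlap at either site. Il11ra1, the gene it overlaps, ranged over 39.7 to 55.9 FPKM in vSSC against 60.6 to 67.1 FPKM in lbSSC, and the part of shared reads in this pattern was not tested.

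In the clusters of inflammatory chemokines no member reached 1 FPKM in any library apart from Cxcl1. In the cluster of Ccl2, Ccl7, Ccl8, Ccl11, Ccl12 and Ccl1 on chromosome 11 (82035571 to 82305690), no member was expressed and the highest value in any library was 0.641 FPKM, of Ccl7 in vSSC replicate 3. Ccl2, the main attractant of monocytes, stayed between 0 and 0.225 FPKM. In the cluster of Ccl3, Ccl4, Ccl5, Ccl6 and Ccl9 on the same chromosome (83525778 to 83664683), the highest value was 0.796 FPKM, of Ccl4 in lbSSC replicate 3. Cxcl9 and Cxcl10, which are induced by interferon and act on Cxcr3 of T cells, were listed at 0 in all vSSC libraries and reached at most 0.310 and 0.903 FPKM in lbSSC.

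Around Cxcl1 on chromosome 5 (90759360 to 90905938), its neighbours Cxcl2, Cxcl3, Cxcl5 and Cxcl15 were not expressed. Cxcl2, which holds GGGAATTTCCC upstream, reached at most 0.569 FPKM, and Cxcl3, with the same run, was listed above 0 in a single library. Both act on Cxcr2 as Cxcl1 does, and their sequences resemble each other, so these low levels are uncertain where reads could be split. On chromosome 8, Cx3cl1 lies between Ccl22 and Ccl17, which did not pass 0.137 FPKM. Ccl19, Ccl21a, Ccl21b and Ccl27b on chromosome 4 were not expressed. Ccl19, a guide of lymphocytes and dendritic cells, was listed at 0 in vSSC throughout and at 0.629, 0.765, 0.647 and 0 FPKM in lbSSC replicates 1 to 4.

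Just outside the rule lay Cxcl13, the attractant of B cells, with 1.80, 0.781, 0.503 and 0.292 FPKM in vSSC replicates 1 to 4 and 0, 0, 0 and 0.274 FPKM in lbSSC replicates 1 to 4. All vSSC values were above all lbSSC values, but the gene did not pass the filter and was not tested. Just inside lay Cxcl16, with 6 libraries at 1 FPKM or more. Ccl24, an attractant of eosinophils made by macrophages, was at 1.04 FPKM in vSSC replicate 1 and listed at 0 in the other 7 libraries. Ccl28, an epithelial ligand of Ccr10, was above 0 in all 8 libraries, at 0.0659 to 0.386 FPKM in vSSC and 0.0140 to 0.0618 in lbSSC.

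The remaining members stayed under 1 FPKM in all libraries. Ccl6 and Ccl9, made by myeloid cells, did not pass 0.604 and 0.275 FPKM. Ccl3, Ccl5 and Cxcl15 did not pass 0.353, 0.397 and 0.186 FPKM. Ccl11 and Ccl12 were each above 0 in a single library, at 0.384 FPKM in vSSC replicate 3 and 0.430 FPKM in lbSSC replicate 4. The genes listed at 0 in all 8 libraries on assembled chromosomes were Ccl1, Ccl8, Ccl20, Ccl21a, Ccl21b, Ccl26, Ccl27b, Cxcl5 and Cxcl17. Read totals were not used here, so a listed 0 does not show that a transcript is absent.

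The classical signalling receptors of Cxcl1, Cxcl16, Cx3cl1, Ccl25 and Ccl27a stayed under 1 FPKM in these libraries. Of 24 receptor genes, 18 stayed under 1 FPKM in every library, among them Cxcr2 (receptor of Cxcl1, at most 0.284 FPKM), Cx3cr1 (at most 0.111), Ccr9 (receptor of Ccl25, at most 0.0554) and Ccr10 (receptor of Ccl27, at most 0.0637), and Cxcr6, the receptor of Cxcl16, was listed at 0 throughout. The 6 tested receptors were Cxcr4, the atypical receptors Ackr1, Ackr2, Ackr3 and Ackr4, which bind chemokines without classical signalling, and Ccrl2, a relative of that group. Of the 5 that reached 1 FPKM at both sites, which leaves out Ackr2, 1 was higher and 2 lower in vSSC, beside 14.3% higher and 9.17% lower among all genes tested. Their median difference was 0.39, beside 0.08 in all genes.

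Cxcr4, the receptor of Cxcl12, was at 14.1, 10.5, 5.20 and 6.01 FPKM in vSSC replicates 1 to 4 and 4.88, 3.30, 2.76 and 1.76 FPKM in lbSSC replicates 1 to 4 (1.21 ± 0.29, limma adjusted p = 0.0137). The groups did not overlap. Blood cells also carry this receptor, and their part in its level was not tested. The call was lost in the model with ribosomal protein content (0.65, limma adjusted p = 0.529). Ackr2, a scavenger of inflammatory CC chemokines, had 1.88 ± 0.440 FPKM in vSSC against 0.273 ± 0.131 FPKM in lbSSC (SD, n = 4). No lbSSC library reached 1 FPKM, so Ackr2 passed the filter through vSSC alone, the site where it is high, and its difference is given as a description.

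Ackr4, which scavenges Ccl19, Ccl21 and Ccl25, had 1.94 ± 1.00 FPKM in vSSC against 4.13 ± 1.14 FPKM in lbSSC (SD, n = 4; -0.83 ± 0.24, limma adjusted p = 0.0303). Ackr1, which binds inflammatory chemokines of both families, was at 0.506 ± 0.561 and 1.94 ± 1.16 FPKM (SD, n = 4; -0.96 ± 0.30, limma adjusted p = 0.0403). It only just passed the filter, through lbSSC replicates 1 to 3 and, in vSSC, replicate 1 alone (1.29 FPKM). For both genes the groups of values overlapped, and these calls depended on single libraries. That of Ackr4 was lost in 7 and that of Ackr1 in 12 of 20 alternatives, with limma adjusted p up to 0.0789 and 0.177, among them the fits without vSSC replicates 2, 3 or 4 or lbSSC replicates 1, 2 or 3 for both genes. Ackr3, the scavenger of Cxcl12, was the most abundant receptor, at 34.8 ± 7.11 FPKM in vSSC and 26.0 ± 3.85 in lbSSC (SD, n = 4), and did not pass (0.39 ± 0.16, limma adjusted p = 0.0987). It passed without vSSC replicate 4 (0.54, limma adjusted p = 0.0162) and turned to -0.10 in the model with ribosomal protein content (limma adjusted p = 0.850). Ccrl2 was at 4.51 ± 1.05 and 3.14 ± 1.71 FPKM (SD, n = 4; 0.48 ± 0.25, limma adjusted p = 0.176) and passed without lbSSC replicate 1 (0.73, limma adjusted p = 0.0241).

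Among NF-kB components and cytokine receptors that induce chemokines such as Cxcl1, 4 of the 19 tested genes that reached 1 FPKM at both sites were lower in vSSC and none higher, beside 9.17% lower and 14.3% higher among all genes tested. Their median difference was -0.18, beside 0.08 in all genes. Nfkbiz, a nuclear co-regulator of NF-kB targets, was at 9.34, 15.1, 7.78 and 18.3 FPKM in vSSC replicates 1 to 4 and 28.1, 37.0, 45.4 and 61.6 FPKM in lbSSC replicates 1 to 4 (-1.71 ± 0.27, limma adjusted p = 0.00118). The interleukin 1 receptor Il1r1 was at 1.09 ± 0.158 against 2.52 ± 0.272 FPKM (SD, n = 4; limma adjusted p = 0.00382) and the bacterial lipoprotein receptor Tlr2 at 3.54 ± 0.793 against 6.81 ± 0.600 (SD, n = 4; limma adjusted p = 0.00419). The NF-kB inhibitor Nfkbia, itself an NF-kB target, differed by -0.64 ± 0.15 (limma adjusted p = 0.0109). Groups did not overlap in any of these 4 genes, beside 25.8% of all genes tested (9.99% with vSSC lower). They were named for having the smallest p of their list, so this adds no support. Once ribosomal protein content entered the model, all 4 missed the threshold, Nfkbiz with a smaller difference (-0.67, limma adjusted p = 0.0639), and Il1r1 (-0.81, limma adjusted p = 0.0610), Tlr2 (-0.87, limma adjusted p = 0.0666) and Nfkbia (-0.71, limma adjusted p = 0.126) with differences no smaller than before. Tnfaip3, another NF-kB inhibitor and target, was at 0.674 to 0.862 FPKM in vSSC and 1.32 to 2.24 in lbSSC. It passed the filter through lbSSC alone, the site where it is high, so its difference is a description and it is left out of the count. The cytokines Tnf, Il1a, Il1b and Il6 did not pass the filter.

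Interferon response genes had 3 of 14 tested members lower in vSSC and none higher, beside 9.17% lower and 14.3% higher among all genes tested, with a median of -0.29. They were Ifitm3, an antiviral membrane protein, at 10.3 ± 1.20 against 31.4 ± 3.65 FPKM (SD, n = 4; -1.52 ± 0.13, limma adjusted p = 1.56e-05), the transcription factor Irf1 at 8.45 ± 2.82 against 26.4 ± 5.87 FPKM (SD, n = 4; -1.56 ± 0.21, limma adjusted p = 0.000397), and the antiviral enzyme Rsad2 (-0.75 ± 0.18, limma adjusted p = 0.0144). The call of Irf1 was lost once ribosomal protein content entered the model (-0.98, limma adjusted p = 0.0546) and that of Rsad2 without both vSSC replicates 1 and 3 (-0.82, limma adjusted p = 0.0535). Jak1, a kinase of interferon receptors, followed with -0.41 ± 0.14 (limma adjusted p = 0.0610). It passed in 5 of 21 alternatives, among them without vSSC replicate 1 (-0.50, limma adjusted p = 0.0326). Of the 22 genes listed, 8 did not reach 1 FPKM in any library, and Mx1 was listed at 0 throughout.

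In the list of proteases that shed or trim chemokines, with their inhibitors, 5 of 8 tested genes were lower in vSSC and none higher, beside 9.17% lower and 14.3% higher among all genes tested, with a median of -0.50. They were the inhibitors Timp3 (-0.70 ± 0.11, limma adjusted p = 0.000834) and Timp2 (-0.47 ± 0.11, limma adjusted p = 0.00937), the membrane metalloproteinase Mmp14 (-0.53 ± 0.13, limma adjusted p = 0.0118), Adam10 (-0.54 ± 0.16, limma adjusted p = 0.0289) and Mmp9 (-0.67 ± 0.22, limma adjusted p = 0.0481). The calls of Timp2 and Mmp14 were lost in 2 of 21 alternatives, without both vSSC replicates 1 and 3 (limma adjusted p = 0.106 and 0.137) and in the model with ribosomal protein content (limma adjusted p = 0.274 and 0.535). That of Adam10 was lost in 8 of 21 alternatives, among them without vSSC replicate 3 or 4 or lbSSC replicate 1, 2 or 3 (limma adjusted p up to 0.0864). That of Mmp9 was lost in 10 of 20, among them without vSSC replicate 1, 2 or 3 or lbSSC replicate 2 or 3 (limma adjusted p up to 0.140). Over all 20 alternatives the limma adjusted p of Mmp9 reached 0.610. Of the ligands that the naming rule leaves out, Mif was higher in vSSC, at 427.3 ± 37.8 against 236.2 ± 37.4 FPKM (SD, n = 4; 0.86 ± 0.13, limma adjusted p = 0.000731), while the platelet chemokines Pf4 and Ppbp did not pass the filter and Xcl1 was listed at 0. Cklf, a chemokine-like factor, was higher in vSSC by 0.72 ± 0.24 (limma adjusted p = 0.04999) and lost this call in 15 of 21 alternatives. Among them were the fits without vSSC replicate 1, 2 or 3 or lbSSC replicate 2, 3 or 4 (limma adjusted p up to 0.139). Over all 21 alternatives the difference of Cklf fell as far as 0.18, and its limma adjusted p reached 0.864.

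**Figure D4:**
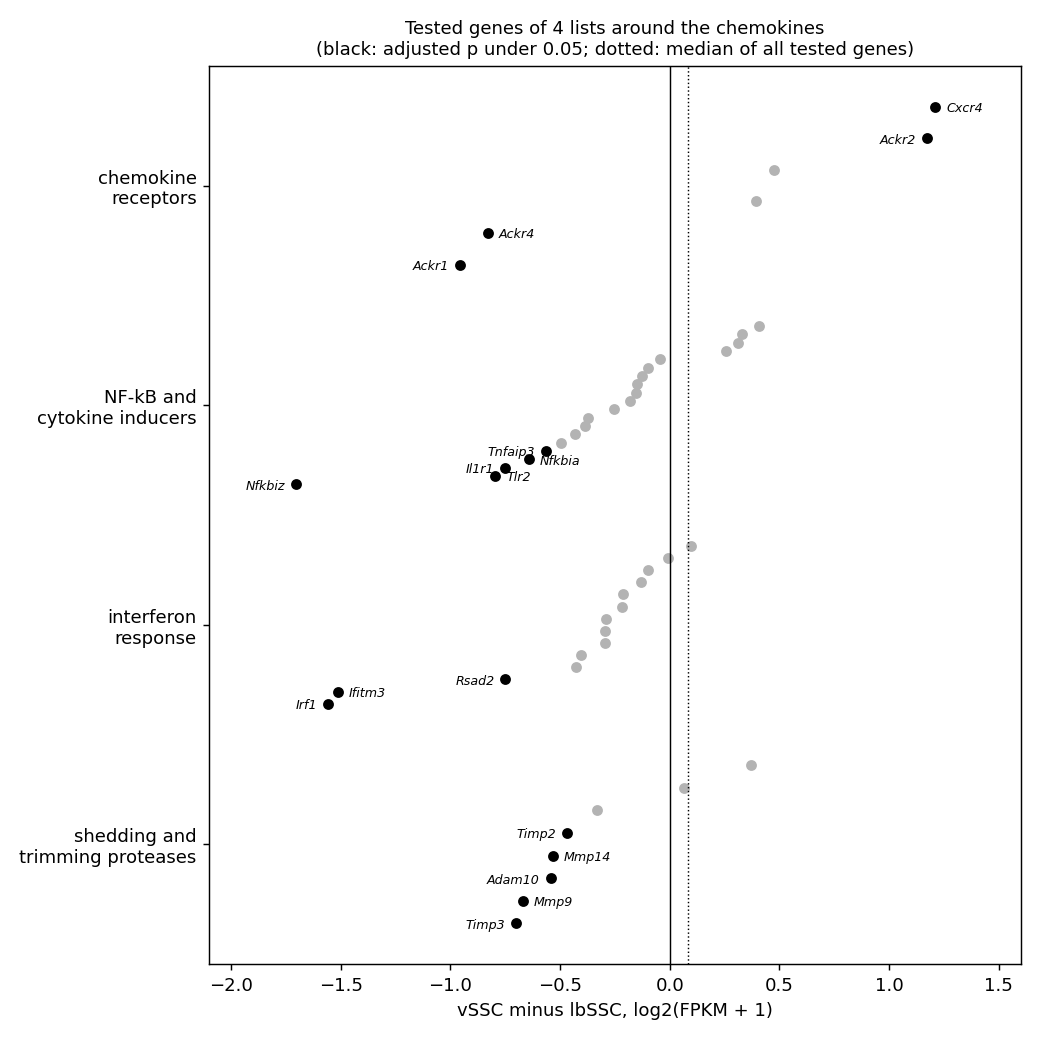
Differences between the sites, taken as vSSC minus lbSSC of log2(FPKM + 1), for all tested genes of 4 lists around the chemokines, with called genes in black and named. In the lower 3 lists every called gene lies below 0, and the receptors hold 2 called genes on each side, of which Ackr2, like Tnfaip3 among the inducers, passed the filter through 1 site alone.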

How the data were processed

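The authors deposited one FPKM value for each protein-coding gene and library. The submitters' processing notes name GRCm38, Cufflinks 2.1.1, STAR 2.5.2 and bcl2fastq 2.19, without their settings. SMART-Seq v4 cDNA went into Nextera XT libraries, per the labels' protocols. No 2 libraries held identical values. Because FPKM is relative to each library, a gain in abundant genes lowers the others. FPKM summed to 460302 to 571869 per library. Read totals were not used here, so depth and the counting error of 1 value are unknown, and precision rests on the replicates.

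In R 4.3.3, log2(FPKM + 1) was taken, which understates changes of low genes. Rows where 4 or more of 8 libraries reached an FPKM of 1 (10729) were fitted with limma 3.58.1, using empirical Bayes and a trended prior variance. The comparison of sites had no covariate, and the sex comparison had site. P-values were Benjamini-Hochberg adjusted over all rows tested and called under 0.05. The procedure was tested on simulated data. Listed starts count from 0, so 1 was added. All 35 members on assembled chromosomes were found in GENCODE M21, 33 with the same bounds. Promoter sequences are from RefSeq.

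Every expressed member, every tested receptor and up to 4 genes with the smallest p of each pathway list were named. Genes that passed the filter through 1 site alone were left out of list counts after their values were seen. Tnfaip3 and Mmp9, the further called genes of their lists, and Adam17, S100a8 and marker genes were named after their values were seen. The members, lists, and the alternatives that drop vSSC replicates 1 and 3 together or model ribosomal protein content were chosen with earlier results of these data known. Alternatives covered pseudocounts of 0.1 and 0.01, other filters, 3 scalings, the variance model, library weights, covariates, a replicate block and leaving out each library in turn.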

Additional observations from a re-analysis of the deposited data

Results flagged for a closer look

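In 30 groups of 4 libraries checked for a value far from the other 3, covering the 8 members that reached 1 FPKM in some library, the 6 tested receptors and the ratio of Cxcl14 to Cxcl12, 3 stood out. Chance gives about 1 in 20 where all values are measured above 0, a rate that does not apply to Ccl24 and Cxcl13, where 3 values listed at 0 fix the result for any 1 value above 0. Ccl24 was at 1.04 FPKM in vSSC replicate 1 and listed at 0 in the other 3 vSSC libraries. Ccrl2 was at 6.07 FPKM in the same library and at 3.83 to 4.16 in the other 3. Cxcl13 was at 0.274 FPKM in lbSSC replicate 4 and listed at 0 in the other 3 lbSSC libraries.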

How the results depend on the processing

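The call of Cxcl14 held in all 21 alternatives (-1.57 to -1.01, adjusted p up to 0.0157) and that of Cxcl1 in 19 of 21. The number of chemokines called was 2 as reported, 1 when ribosomal protein content was modelled, and 2 to 3 with 1 library left out. Over all genes, 2518 were called as reported, 1534 to 2991 with 1 library left out (leaving out vSSC replicate 1 gave 1673, vSSC replicate 3 gave 1646, lbSSC replicate 3 gave 1534 and lbSSC replicate 4 gave 1589), 1095 when vSSC replicates 1 and 3 were both dropped, and 623 when ribosomal protein content was modelled. As deposited, 1534 of the 2518 calls were higher in vSSC; that split was 49.5% with median-of-ratios scaling, 50% under quantile normalization and 42.4% for libraries rescaled to one sum. With ribosomal content modelled, the differences of Ackr3 and Ccrl2 turned to -0.10 and -0.081. The cause was not tested.

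With the replicate number as a block, 3194 genes and 2 chemokines were called, and Ackr3 passed (0.39, limma adjusted p = 0.0215). Deviations of same-numbered libraries correlated at 0.26, -0.09, -0.06 and 0.44, so the numbers were not taken as pairs, and not every library correlated best with its own number. The sex comparison called 3 genes with a filter at an FPKM of 5, which leaves fewer genes tested, and 13 with library weights, against 5 as reported. The interaction called 0 to 1 gene with 1 library left out, the 1 without vSSC replicate 4. The count of expressed chemokines was 6, and 2 where the threshold was an FPKM of 5. Low FPKM limit what can be said of the 36 members not expressed.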
